A study of Mus musculus with 6 samples.

Results

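The intermediate filaments of neurons were followed through 6 genes, Nefl, Nefm, Nefh, Ina, Prph and Nes, which were picked by gene symbol. All 6 were among the 25576 genes listed above 0 in at least 1 library. All 6 also passed the minimum mean of 0.5 FPKM, along with 17088 genes in total that were tested. RNA of whole spinal cord from FVB mice at postnatal day 4 was sequenced in 6 libraries (bulk-seq), to compare mice with a severe, type I form of spinal muscular atrophy (SMA) with controls. The 3 SMA libraries came from mice homozygous for a mutant allele of mouse Smn and carrying the human SMN2 transgene, written mSmn-/- with hSMN22tg/0. The 3 control libraries came from mice with 1 mutant and 1 wild-type allele of mouse Smn and the same transgene, written mSmn+/- with hSMN22tg/0. The controls are thus carriers and not wild type. The study's methods can be read as triplicates of a single sample in each group. The p-values below therefore measure the spread between libraries, which may be technical.

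Intermediate filaments are rope-like polymers that give cells and axons mechanical strength. The neurofilament is a mixed polymer built on the light subunit, Nefl, with the medium and heavy subunits Nefm and Nefh, whose long tails project from the filament, and with the partner subunits alpha-internexin (Ina) and peripherin (Prph). In myelinated axons neurofilaments set the calibre of the axon; Ina is prominent in young neurons, Nefh accumulates as axons mature, and Prph is typical of neurons with axons outside the central nervous system, motor neurons among them. Nestin (Nes) is the filament protein of neural stem and progenitor cells and is also made by other immature or growing cells, including those of vessels.

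Smn1, the targeted gene, was listed at 10.4, 8.64 and 11.9 FPKM for control replicates 1 through 3, set against 8.48, 9.30 and 11.1 for SMA replicates 1 through 3. FPKM are fragment counts scaled to exon length and to the mapped fragments of the library, so levels of different genes can be compared per length. The groups overlapped for Smn1 (exact two-sided permutation test, p = 0.6; log2 fold change -0.089), and its gene-level value therefore does not check the genotype labels. Every direction given below rests on those labels.

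Control replicate 2 stood apart from the other 5 libraries. The 12 hepatocyte genes examined summed to 27163 FPKM there and to between 44.6 and 98.6 FPKM elsewhere, and the most abundant, Alb, stood at 15895 FPKM against 24.6 to 56.2 FPKM. The 7 erythroid genes found, of 8 looked for (Ahsp was listed in no library), summed to 18823 FPKM against 1115 to 1861 FPKM, with Hbb-bs the most abundant. Over the genes tested, Pearson's correlation of log2(FPKM + 1), across genes that are not independent replicates, was 0.836 to 0.849 between control replicate 2 and the others. The filament genes and the gene lists closest to them are therefore also given without control replicate 2. The relative depth of the libraries, read off the commonest ratio among values below 0.15 FPKM, came to 1.15, 1.09 and 1.05 for the controls by replicate and to 1.01 for both SMA replicates 2 and 3, each against SMA replicate 1. The number of reads is unknown, so no counting intervals are given.

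The tissue label was checked against neuron markers. All 18 neuron markers were above 0 in every library, and they summed to 2521, 2021 and 3008 in the control libraries, in order of replicate, versus 2776, 2836 and 2921 FPKM in the SMA libraries. The most abundant was the non-coding RNA Meg3, with 675 to 978 FPKM. Of the 18, 16 were lowest in control replicate 2, all but Meg3 and Snhg11. The 6 astrocyte genes, led by the glutamate transporter Slc1a2, summed to 392 FPKM in control replicate 2 and to between 463 and 498 FPKM in the other libraries, and none was at 0.

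The levels of the 6 filament genes held the same order in each of the 6 libraries, Nefl, Nefm, Ina, Prph, Nefh and Nes. Nefl was 2.23 to 2.76 times as high as Nefm within a library, and the lowest Nefl value (157 FPKM) lay above the highest Nefm value (130 FPKM). Nefm was 1.26 to 1.70 times as high as Ina in the same library, although their ranges over libraries overlapped. The ranges of Ina and Prph overlapped as well, with within-library ratios of 1.44 to 2.47. Prph and Nefh, and likewise Nefh and Nes, had ranges that were apart. By rank, Nefl was between the 57th and the 229th most abundant gene of a library, and Nes between the 8870th and the 12192nd.

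**Figure D1:**
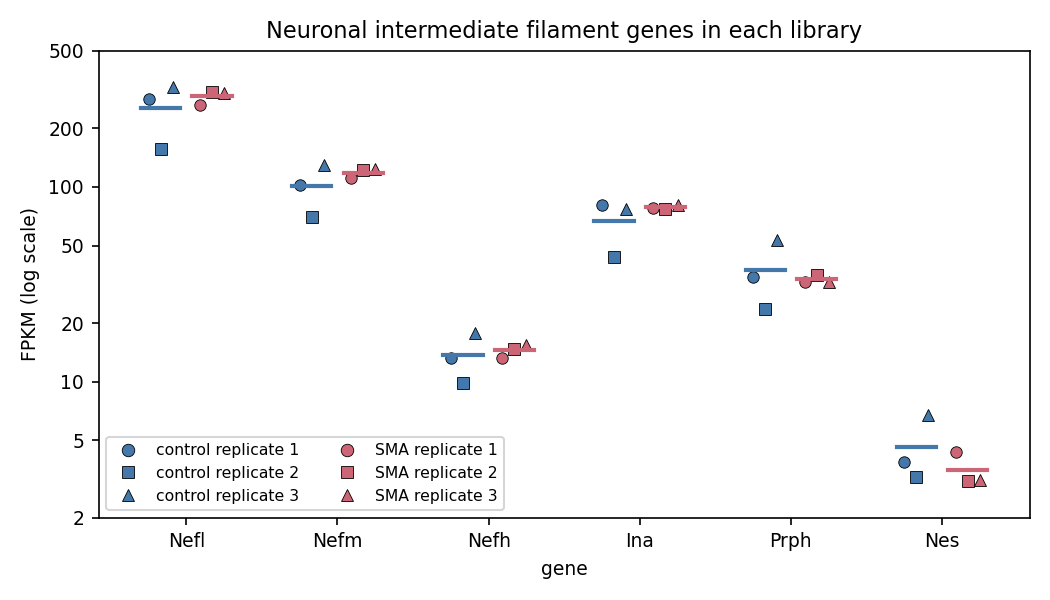
Level of each filament gene in each library, in FPKM on a log axis; symbols are single libraries (blue control, red SMA, shape by replicate) and bars are group means. Control replicate 2 is lowest for every gene but Nes, control replicate 3 is highest for every gene but Ina, and the groups overlap for all 6 genes.

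Nefl, the light subunit on which the polymer is built, lies on chromosome 14 from 68083863 to 68089095 on the plus strand of GRCm38, and its annotated transcript has 4 exons. The files list it at 282, 157 and 325 FPKM across the control libraries (replicates 1 to 3) against 265, 307 and 302 FPKM across the SMA libraries (same order). The SMA libraries lay within the range of the controls, whose lowest value was control replicate 2 and whose highest was control replicate 3. The log2 fold change, on the log2(FPKM + 1) scale used throughout, was 0.26 (standard error 0.27; limma adjusted p = 0.720, by Benjamini-Hochberg over all genes tested). Leaving out control replicate 2 gave -0.059, so the sign rested on that library.

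Nefm, the medium subunit, lies on the opposite strand of the same stretch of chromosome 14, from 68082590 to 68124846. Its level stood at 102, 70.2 and 130 FPKM for control replicates 1 through 3, set against 111, 122 and 122.9 for SMA replicates 1 through 3. Again the SMA libraries lay inside the control range, between control replicates 1 and 3. The log2 fold change was 0.27 (standard error 0.22, limma adjusted p = 0.683), and it was 0.037 without control replicate 2. The last exon of the longer of the 2 annotated Nefm transcripts overlaps the first exon of Nefl by 1108 bases, 32.8% of the exon bases of Nefl. The libraries were strand-specific, but no source used here says whether strand was used in the quantification, so the split of fragments between these genes is uncertain.

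Nefh, the heavy subunit, lies on chromosome 11 from 4938754 to 4948064 on the minus strand. In FPKM it came at 13.3, 9.88 and 17.8 in the control libraries, in order of replicate, versus 13.2, 14.8 and 15.5 FPKM in the SMA libraries. SMA replicate 1 was almost level with control replicate 1, and the groups overlapped. The log2 fold change was 0.11 (standard error 0.20, limma adjusted p = 0.828) with all libraries and -0.084 without control replicate 2. Per length, Nefh was the scarcest of the 3 neurofilament subunits, at 0.0472 to 0.0631 of the Nefl level within a library.

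Ina, the internexin partner of the triplet, lies on chromosome 19 from 47014698 to 47025327 on the plus strand. It was listed at 80.9, 43.8 and 76.8 FPKM across the control libraries (replicates 1 to 3) against 78.3, 76.7 and 80.5 FPKM across the SMA libraries (same order). Apart from control replicate 2, the other 5 libraries ran from 76.7 to 80.9 FPKM, the narrowest relative spread of the 6 genes. The log2 fold change was 0.27 (standard error 0.23, limma adjusted p = 0.683), and without control replicate 2 it was -0.0059 (standard error 0.056). The 5′ end of Ina overlaps 456 exon bases of Nt5c2 on the other strand, 14.1% of the exon bases of Ina. Nt5c2 itself stood at 13.1 FPKM in control replicate 2 and at 15.9 to 17.9 FPKM in the other libraries.

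Prph, peripherin, lies on chromosome 15 from 99055174 to 99058978 on the plus strand. Listed values stood at 34.7, 23.5 and 53.5 FPKM for control replicates 1 through 3, set against 32.7, 35.4 and 32.6 for SMA replicates 1 through 3. The SMA libraries were close to control replicate 1, and control replicates 2 and 3 lay well below and well above them. The log2 fold change was -0.071 (standard error 0.27, limma adjusted p = 0.927). Without control replicate 2 it was -0.35 (limma adjusted p = 0.493, unadjusted p = 0.058), and without control replicate 3 it was 0.22.

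Nes, nestin, lies on chromosome 3 from 87971078 to 87980451 on the plus strand. It was found at 3.86, 3.25 and 6.73 in the control libraries, in order of replicate, versus 4.37, 3.08 and 3.11 FPKM in the SMA libraries. Control replicate 3 was high, and SMA replicates 2 and 3 were just under control replicate 2, with SMA replicate 1 inside the control range. The log2 fold change was -0.28 (standard error 0.25, limma adjusted p = 0.688) and -0.45 without control replicate 2 (limma adjusted p = 0.524). Without control replicate 3 it was -0.020 (limma adjusted p = 0.959), so its size rested on that library.

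None of the 6 genes passed an adjusted p of 0.05 in the limma fit, where 0 of all genes tested did (0%). None passed an unadjusted p of 0.05 either, against 3.40% of all genes tested that did so with higher and 2.39% with lower values in SMA. With a fold over 2 in addition, 29 genes (0.170%) and no filament gene were left. In none of the 6 did every SMA library lie above every control library, as in 10.3% of all genes tested, or below, as in 6.67%. Without control replicate 2 the adjusted threshold was passed by 2 genes (0.0121%), Snora74a and Rpph1, named here after their values were seen. In that fit no filament gene passed the unadjusted threshold, against 5.27% of genes higher and 5.20% lower, and again none had groups apart, against 14.2% of genes with SMA above and 13.9% with SMA below. With 3 libraries against 3, or 3 against 2, 0.1 is the smallest p that the exact test can reach. A p that misses the threshold does not show that values did not differ.

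The median log2 fold change of the 6 genes was 0.18, beside 0.044 over all genes tested, and 4 of the 6 were positive, beside 58.0% of all genes. Of the 6, 5 were lowest in control replicate 2, as were 44.9% of all genes tested. Without control replicate 2 the median was -0.072, beside 0.0016 over all genes, and 1 of the 6 was positive, beside 50.4% of all genes. With control replicate 2 among them, the control libraries were the more variable: the coefficient of variation of control FPKM was 29.1% to 40.7% over the 6 genes, and that of SMA FPKM was 2.45% (Ina) to 7.94% (Nefl) for all but Nes, which had 21.0%. Much of the control spread of some genes came from control replicate 2, as for Ina, where the other controls were at 80.9 and 76.8 FPKM. Every 95% interval of the log2 fold change included 0; that of Nefl ran from -0.40 to 0.91 with all libraries and from -0.27 to 0.15 without control replicate 2. In bulk RNA, fewer neurons and less filament RNA per neuron cannot be told apart.

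**Figure D2:**
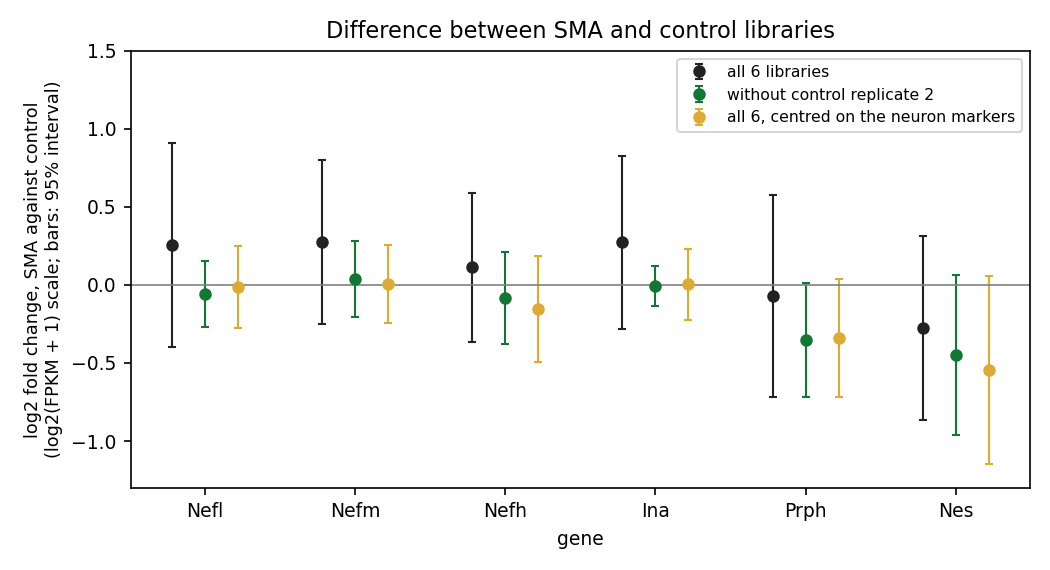
Log2 fold change of each filament gene, SMA against control, on the log2(FPKM + 1) scale, with limma 95% intervals: all 6 libraries (black), without control replicate 2 (green) and all 6 libraries centred on the neuron markers (yellow). Every interval includes 0, and the estimates of Nefl, Nefh and Ina with all libraries turn from positive to negative without control replicate 2.

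Ratios between neuronal genes within a library are kept when all neuronal RNA is diluted together, so each gene was next set against the mean log2(FPKM + 1) of the 18 neuron markers in its own library. On this scale Ina ranged over 0.17 log2 units across the 6 libraries, Nefl over 0.29, Nefm over 0.29 and Nefh over 0.34. The neuron markers themselves had ranges of 0.069 to 0.97, with a median of 0.26. Prph ranged over 0.73 and Nes over 0.94, close to the median of 0.82 over all genes tested. The triplet and Ina thus varied about as much as the typical neuron marker, control replicate 2 included, and Prph and Nes varied more.

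Relative to the neuron markers, the differences between SMA and control were -0.012 for Nefl, 0.0050 for Nefm, -0.16 for Nefh and 0.0035 for Ina (log2; exact two-sided permutation test over 6 libraries, p = 1, 0.8, 0.4 and 1). The groups overlapped for each of these genes. Leaving out control replicate 2 gave -0.084, 0.012, -0.11 and -0.030 in the same order. For Nes the difference was -0.54 (exact permutation p = 0.2), again with overlap. It was -0.48 without control replicate 2 and -0.42 without control replicate 3. The reference list moves the scale for all genes: centred on it, the median log2 fold change of all genes tested shifted by -0.27, from 0.044 to -0.22.

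Prph, with a smaller difference than Nes, was the only 1 of the 6 genes with groups apart on this scale. Its value relative to the neuron markers was -1.35, -1.19 and -0.80 across the control libraries (replicates 1 to 3) against -1.43, -1.40 and -1.53 across the SMA libraries (same order). All 3 SMA libraries lay below all 3 control libraries, with a mean difference of -0.34 (-0.38 without control replicate 2 and -0.18 without control replicate 3), and the exact permutation p was 0.1, the smallest possible. The gap between the nearest libraries, control replicate 1 and SMA replicate 2, was small beside the spread of the controls. Centred in this way, 14.3% of all genes tested had every SMA library below every control library, and 14.8% without control replicate 2. Read against that share, 1 of the 6 filament genes with groups apart is no result about them.

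Shares in the summed FPKM of the 6 genes gave a related picture. The sum was 517, 307 and 611 FPKM for control replicates 1 through 3, set against 504, 558 and 557 for SMA replicates 1 through 3. Nefl made up 51.0% to 54.9% of it, Nefm 19.8% to 22.8%, Ina 12.6% to 15.7% and Nefh 2.57% to 3.22%. For Nefl, Nefm, Nefh and Ina the groups overlapped, with exact p-values of 0.6, 0.7, 0.4 and 0.8. Prph held 6.71%, 7.66% and 8.76% in the control libraries, in order of replicate, versus 6.48%, 6.34% and 5.86% in the SMA libraries. All SMA shares of Prph were lower, by 1.49 percentage points on average (7.71% ± 1.03 in control and 6.23% ± 0.32 in SMA, SD, n = 3 each; exact permutation p = 0.1). Scaled to the same sum, 5.12% of all genes tested had SMA wholly below control, and 5.52% without control replicate 2. The share of Nefm was wholly above control only without control replicate 2, by 1.40 percentage points, as in 13.8% of all genes. Nes held 0.551% to 1.10%, with overlapping groups.

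**Figure D3:**
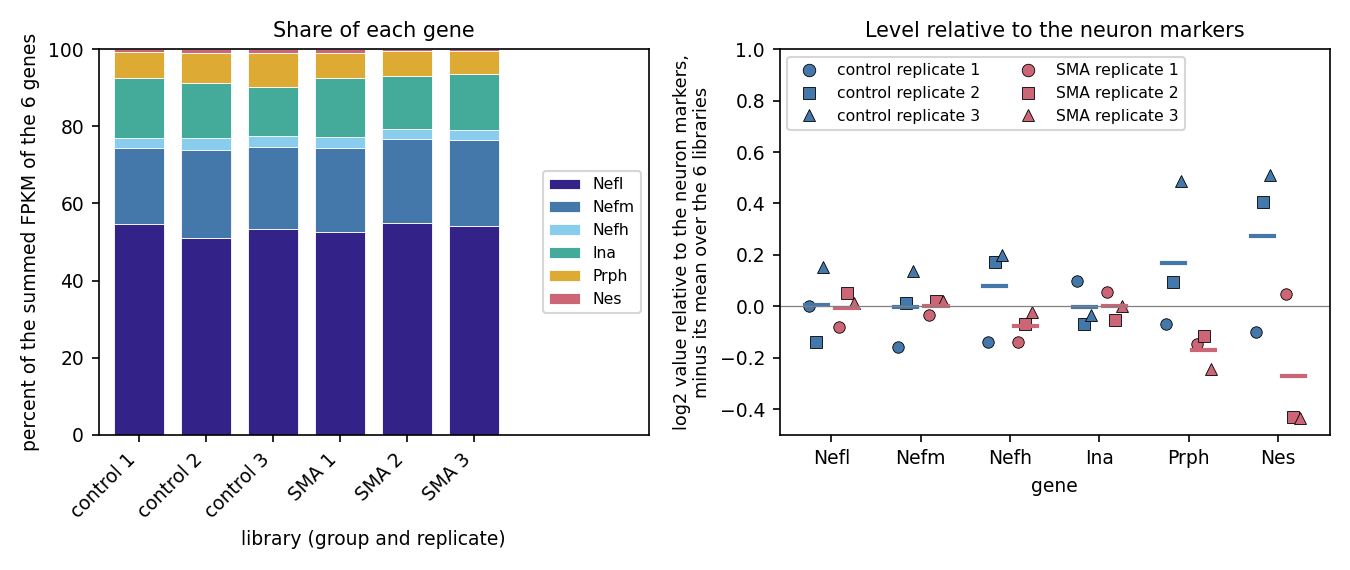
Left, share of each gene in the summed FPKM of the 6 filament genes, as stacked bars for each library. Right, log2 level relative to the mean of the 18 neuron markers, minus each gene's mean over the 6 libraries (points are libraries, bars group means); Ina varies by 0.17 log2 units, and the SMA points of Prph all lie below its control points.

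The balance of subunits was then taken as ratios to Nefl. Nefm to Nefl was 0.362, 0.448 and 0.400 across the control libraries (replicates 1 to 3) against 0.418, 0.397 and 0.407 across the SMA libraries (same order). The controls enclosed the SMA libraries, and the mean log2 ratios differed by 0.018 (exact permutation p = 0.9). For Nefh to Nefl the difference was -0.13 (p = 0.4), for Ina to Nefl 0.019 (p = 0.9) and for Prph to Nefl -0.33 (p = 0.2), each from the exact permutation test with overlapping groups. Leaving out control replicate 2 gave 0.097 for Nefm, -0.030 for Nefh, 0.054 for Ina and -0.30 for Prph. The Prph ratio was 0.123, 0.1503 and 0.164 for control replicates 1 through 3, set against 0.123, 0.115 and 0.108 for SMA replicates 1 through 3, so control replicate 1 and SMA replicate 1 were level.

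Because Prph belongs to neurons with peripheral axons, markers of motor neurons, sensory neurons and skeletal muscle were set beside it. The 6 motor neuron genes, led by the vesicular acetylcholine transporter Slc18a3, summed to 24.4, 16.1 and 35.3 in the control libraries, in order of replicate, versus 27.0, 30.2 and 29.1 FPKM in the SMA libraries. Like Prph, this sum was lowest in control replicate 2 and highest in control replicate 3. So were the sums of the neuron markers and of the filament genes. None of the 6 motor neuron genes was at 0. Of the 5 motor neuron genes tested, none passed an unadjusted p of 0.05 with all libraries, 3 had a positive log2 fold change, and the median was 0.16. Without control replicate 2 again 3 of 5 were positive, with a median of 0.021. At that threshold 1 was lower there, beside 5.20% of all genes. Without control replicate 3 none was lower and 1 was higher, beside 712 lower and 1040 higher of 17131 genes tested. Leaving out SMA replicate 2 likewise gave none lower and 1 higher, beside 142 lower and 255 higher of 17117. Centred on the neuron markers, 2 of the 5 were positive and 3 negative, with a median of -0.11, beside -0.22 over all genes.

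The 8 sensory neuron genes summed to 8.48, 4.80 and 6.84 FPKM in the controls by replicate and to 11.1, 9.64 and 9.63 FPKM in the SMA libraries, mostly from Pou4f1. Every SMA sum was above every control sum, while Prph had overlapping groups in FPKM. Pou4f1 alone was at 4.03 to 5.63 FPKM in control and at 6.47 to 7.67 FPKM in SMA, so the sums mainly followed this gene. Which cells of the cord held it was not tested. Mrgprd was at 0 in control replicate 2. Of the 3 that were tested, Pou4f1 was higher in SMA at an unadjusted p of 0.05 (log2 fold change 0.43, limma adjusted p = 0.683), beside 3.40% of all genes. None of the 3 was without SMA replicate 3 or when centred on the neuron markers, where 214 and 19 of all genes tested were. So centred, 1 of the 3 was positive and 2 were negative, with a median of -0.069. The 8 skeletal muscle genes, led by Acta1, summed to 2.46 to 8.66 FPKM, with Mylpf at 0 in control replicate 3. The part of these and other cell types in the Prph values was not tested.

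Nes was set beside progenitor and vessel markers. The 9 progenitor genes, led by the radial glial fatty acid binding protein Fabp7, summed to 705, 491 and 646 FPKM for control replicates 1 through 3, set against 509, 484 and 476 for SMA replicates 1 through 3. With all libraries none of the 9 passed an unadjusted p of 0.05. Once control replicate 2 was left out, 3 of them did, all lower in SMA, beside 5.20% of all genes lower in that fit. Fabp7 had a log2 fold change of -0.30 with all libraries (limma adjusted p = 0.683) and of -0.50 without control replicate 2 (limma adjusted p = 0.176). The proliferation gene Mki67 was at 21.7 FPKM in control replicate 2 and at 2.08 to 4.50 FPKM in the others, a difference that Nes did not share.

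The 14 vessel genes, of endothelial cells and pericytes, summed to 109, 137 and 132 in the control libraries, in order of replicate, versus 101, 83.0 and 89.3 FPKM in the SMA libraries. All 3 sums of SMA were below those of control, and none of the 14 genes was at 0. Of the 14, 7 were lower at an unadjusted p of 0.05 and none was higher, none passed the adjusted p, and the median log2 fold change was -0.39. The tight junction gene Cldn5, the most abundant, had 25.8, 20.4 and 25.0 FPKM in the controls by replicate and 16.4, 15.7 and 14.4 FPKM in the SMA libraries (log2 fold change -0.58, limma adjusted p = 0.683). Over all genes tested, 2.39% were lower and 3.40% higher at that threshold. Once control replicate 2 was left out the count was again 7, with a median of -0.32. In that fit 5.20% of all genes were lower and 5.27% higher. The count was 3 without SMA replicate 2, where 142 of all 17117 genes tested were lower at that threshold. It was also 3 without SMA replicate 3, where 125 of 17098 were, beside 409 of 17088 with all libraries. Nes had overlapping groups and a log2 fold change that was close to 0 (-0.020) without control replicate 3, and the part of vessels in its values was not tested.

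**Figure D4:**
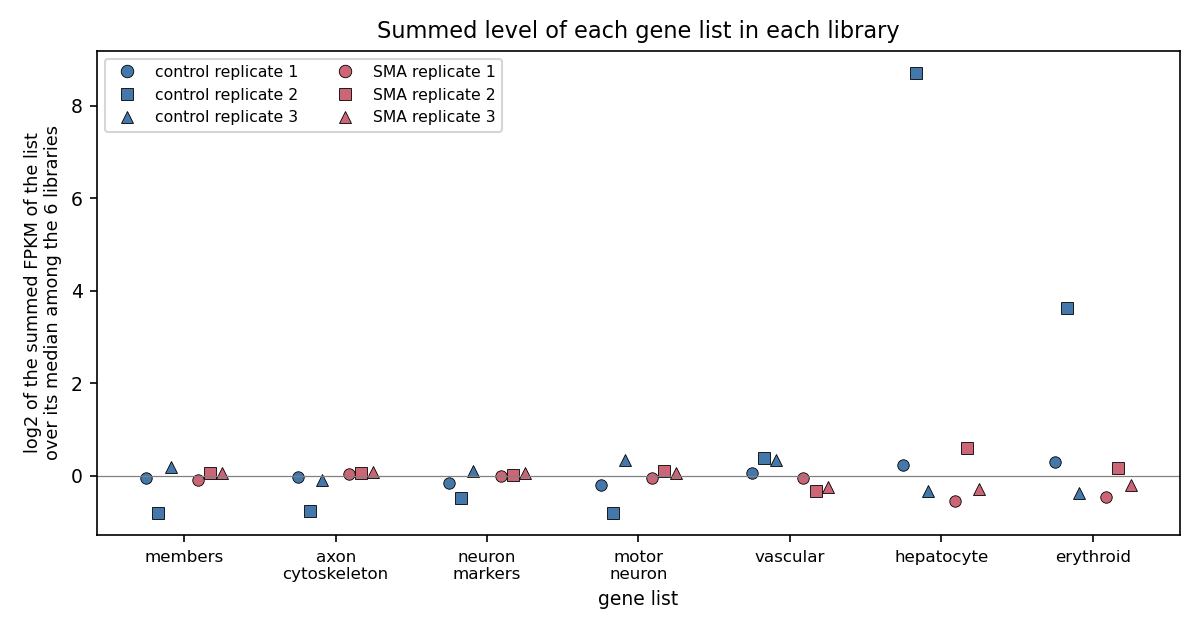
Summed FPKM of the filament genes and of 6 gene lists in each library, as log2 of its ratio to the list's median over the 6 libraries; each symbol is a library. Control replicate 2 is low for the filament, axon and neuron lists and far above the rest for the hepatocyte and erythroid lists.

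Other intermediate filaments gave no common direction before centring on the neuron markers. Of 13 genes, 12 were tested, 6 had a positive and 6 a negative log2 fold change, none passed an unadjusted p of 0.05, and the median was 0.010. Gfap, the filament protein of astrocytes, was listed at 124, 117 and 167 FPKM across the control libraries (replicates 1 to 3) against 136, 150 and 119 FPKM across the SMA libraries (same order). Vim, the vimentin of glia, vessels and connective tissue, was at 67.4 to 80.3 FPKM in control and at 50.3 to 87.7 FPKM in SMA. The nuclear lamins Lmna and Lmnb1 were at 12.4 to 19.9 FPKM over all libraries. The epithelial keratins Krt8 and Krt18 stood at 15.1 and 33.3 FPKM in control replicate 2 and below 1 FPKM elsewhere, with Krt8 at 0 in control replicate 3. Their high library is thus the one that holds the hepatocyte genes.

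Genes that carry, link or modify neurofilaments were mostly positive, as the neuron markers were, but not when centred on those markers. Of 21 such partners, 19 had a positive log2 fold change, 2 were higher at an unadjusted p of 0.05, none passed the adjusted p, and the median was 0.20, where 58.0% of all genes tested were positive and 3.40% higher at that threshold. Of these 21, 20 were lowest in control replicate 2, beside 44.9% of all genes, and without it the median was 0.034 with 3 genes higher and 1 lower at an unadjusted p of 0.05, beside 5.27% and 5.20% of all genes. The count of 2 higher became 1 without SMA replicate 1 or 2 and 0 without SMA replicate 3 or when centred on the neuron markers. Over all genes tested, the 581 higher became 238, 255 and 214 without SMA replicates 1, 2 and 3, and 19 when so centred. In the centred fit 6 of the 21 partners were positive and 15 negative, with a median of -0.072, beside -0.22 over all genes. The kinesin subunit Klc1, the most abundant, was at 137, 85.3 and 130 FPKM for control replicates 1 through 3, set against 144, 143 and 149 for SMA replicates 1 through 3. The linker Macf1 and the motors Kif5c and Dync1h1 had log2 fold changes of 0.083, 0.25 and 0.19, and of 0.012, 0.029 and 0.034 without control replicate 2.

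The largest log2 fold change among the partners was that of the small heat shock protein Hspb1, which is known to act on neurofilament assembly. The files list it at 2.40, 2.08 and 3.46 in the control libraries, in order of replicate, versus 3.74, 4.49 and 4.94 FPKM in the SMA libraries. All SMA libraries were above all controls, and the log2 fold change was 0.58 (standard error 0.18, limma adjusted p = 0.683) and 0.46 without control replicate 2. The other partner past an unadjusted p of 0.05 was Cdk5r2, an activator of the neurofilament kinase Cdk5, with a log2 fold change of 0.48 (limma adjusted p = 0.683) and 0.28 without control replicate 2. Tardbp, an RNA-binding protein that binds the Nefl messenger, was lower in all SMA libraries, at 50.9 to 60.9 FPKM against 61.4 to 66.8 FPKM in control (log2 fold change -0.21, limma adjusted p = 0.683), and was named after its values were seen. It is the only 1 of the 21 partners with SMA wholly below control, and 10 of the 21 had SMA wholly above, beside 6.67% and 10.3% of all genes.

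Tubulins and other axonal cytoskeleton genes depended in size, more than in sign, on control replicate 2. All 18 had a positive log2 fold change, with a median of 0.31, none passed an unadjusted p of 0.05, and all 18 were lowest in control replicate 2. In 9 of the 18 every SMA library lay above every control library, as in 10.3% of all genes tested. Their sum was 5935, 3565 and 5734 FPKM across the control libraries (replicates 1 to 3) against 6242, 6303 and 6393 FPKM across the SMA libraries (same order). Without control replicate 2 the median was 0.072 with 17 of 18 positive, beside 50.4% of all genes, and 6 genes were higher at an unadjusted p of 0.05, beside 5.27% of all genes. Tubb2b, with the largest log2 fold change, was at 653, 343 and 587 FPKM for control replicates 1 through 3, set against 728, 720 and 730 for SMA replicates 1 through 3 (log2 fold change 0.51, limma adjusted p = 0.683; 0.23 without control replicate 2). Tuba1a, the most abundant, had 0.42 with all libraries and 0.20 without control replicate 2. Centred on the neuron markers, 12 of the 18 genes were positive and 6 negative, with a median of 0.041, beside -0.22 over all genes.

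The neuron markers had a median log2 fold change of 0.30 with all 18 positive (58.0% of all genes were), and of 0.042 without control replicate 2, with 11 positive, 4 higher and 3 lower at an unadjusted p of 0.05, beside 50.4%, 5.27% and 5.20% of all genes. The enolase Eno2 was among the 3, at a log2 fold change of 0.0033 with all libraries and of -0.27 without control replicate 2 (limma adjusted p = 0.360). Slc32a1, the vesicular transporter of inhibitory neurons, had the largest log2 fold change, 0.51 with all libraries and 0.18 without control replicate 2.

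The genes with the pattern most like each filament gene were found by the root mean square difference of centred log2(FPKM + 1) over the 6 libraries, among 7135 genes (7136 for Nes) whose mean reached 10 FPKM. Nearest to Nefl were Nap1l2, Kcnk9 and Cbln1 (differences of 0.030, 0.032 and 0.036 log2 units), nearest to Nefm were Tmem150c, Fam135b and Herc3 (0.029, 0.033 and 0.038), and nearest to Nefh were Cntn2, Sema5a and Ttc19 (0.035, 0.040 and 0.040). Ina was matched most closely by Grm5, Rundc3b and Scg2 (0.016, 0.025 and 0.025). For example, Grm5 stood at 131, 73.8 and 125 in the control libraries, in order of replicate, versus 130, 125 and 132 FPKM in the SMA libraries. Prph had Inafm1 (0.035), Cthrc1 (0.079) and Hoxd8 (0.084), which shared its high value in control replicate 3, Inafm1 with 18.1 FPKM there against 11.3 to 12.1 FPKM in the SMA libraries. Nes had no gene closer than Jam3 (0.13), before Hdac7 and Slc7a1 (both 0.14). Among the filament genes themselves the closest pairs were Nefm with Nefh (0.092) and Nefm with Nefl (0.093).

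Promoters are shown for the 3 filament genes with an entry in the RefSeq promoter table (GRCm38.p6), because they span the patterns above, from Ina, nearest to the neuron markers, to Prph and Nes, farthest from them. Nefl, Nefm and Nefh have no entry. Each sequence is the 150 bases before the RefSeq start, 5′ to 3′ on the plus strand, from chr19:47014531-47014680 for Ina, chr15:99055024-99055173 for Prph and chr3:87970943-87971092 for Nes. Capitals mark TATAAA or GGGCGG on either strand. CCAAT was searched as well.
Ina: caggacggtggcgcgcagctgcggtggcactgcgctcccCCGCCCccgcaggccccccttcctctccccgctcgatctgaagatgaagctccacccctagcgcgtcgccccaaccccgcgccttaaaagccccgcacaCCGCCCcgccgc
Prph: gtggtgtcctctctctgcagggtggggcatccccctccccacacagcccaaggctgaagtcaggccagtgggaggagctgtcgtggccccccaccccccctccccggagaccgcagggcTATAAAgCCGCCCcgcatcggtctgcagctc
Nes: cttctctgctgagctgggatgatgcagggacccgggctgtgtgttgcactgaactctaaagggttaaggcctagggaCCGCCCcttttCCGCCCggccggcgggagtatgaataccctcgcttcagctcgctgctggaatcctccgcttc

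Prph holds a TATAAA from base -31 to -26 before its start, a motif found in 7.57% of the 32851 promoter windows of the same length. Neither Ina nor Nes has these letters in the window. GGGCGG occurs on the minus strand at 2 places in Ina, at 2 in Nes and at 1 in Prph, and is in 28.6% of all windows. CCAAT, which 24.5% of all windows hold, is in none of the 3. The windows of Ina, Prph and Nes have 74.0%, 69.3% and 60.7% G and C, beside a median of 54% over all windows, and 18, 6 and 9 CG pairs beside a median of 4. The window of Ina lies within the span of Nt5c2, which runs on the other strand. These matches describe the sequence only, and no binding was measured.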

How the data were processed

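The values used are the deposited FPKM of the authors, 1 table per library. According to the submitters' processing notes, HISAT2 aligned the reads and Cufflinks quantified them; the libraries were strand-specific and depleted of ribosomal RNA. The notes name the mm10 build, the assembly also called GRCm38; tool versions and the annotation release were not given in the sources used here. Each file lists genes above 0, and a gene absent from a file was set to 0. Gene positions, exons and overlaps were taken from GENCODE M21 (GRCm38). The files give Nefl and Nefm 1 shared span (chromosome 14 from 68082590 to 68124846) and extend that of Ina to 46886831.

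Groups and replicate numbers came from the sample labels. Genes whose mean reached 0.5 FPKM were tested on log2(FPKM + 1) with lmFit and eBayes (variance trend) of limma 3.58.1 in R 4.3.3, two-sided, without covariates, with Benjamini-Hochberg adjustment over all genes tested. A count model was not used, since FPKM are not counts. Shares, ratios and values relative to the neuron markers were tested with exact two-sided permutation tests over all assignments of libraries to groups, without adjustment, for 6 shares, 6 relative values and 4 ratios. The procedure was tested on simulated data with known changes. Medians of lists are over the genes tested. Python 3.11.15 was used for tables and figures.

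Genes named are the 6 filament genes, Smn1, genes from each list among the 4 with the highest mean FPKM or with the largest log2 fold change, and for each filament gene the 3 nearest in pattern among genes whose mean reached 10 FPKM. Further genes were picked for small counts or outlying values, once these had been seen. The members and the 13 other lists were chosen with earlier results of these data known. Alternatives were a pseudocount of 0.1, other minimum levels, scaling to the same total, by quantiles, by median ratios or to the neuron markers, eBayes with the robust option, a block for replicate number, and leaving out each library. The single-cell data of the study were not analysed here. The values of 1 gene list are not reported here.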

Additional observations from a re-analysis of the deposited data

How the results depend on the processing

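No filament gene passed an adjusted p of 0.05 in limma under any alternative, and 1 passed an unadjusted p of 0.05, Nefm without control replicate 3. In the limma fits that kept all 6 libraries the log2 fold changes of Nefm and Ina were positive and those of Prph and Nes negative; those of Nefl and Nefh turned to -0.012 and -0.16 when centred on the neuron markers. With 1 library left out at a time, log2 fold changes ran from -0.059 to 0.47 for Nefl, 0.037 to 0.48 for Nefm, -0.084 to 0.31 for Nefh, -0.0059 to 0.43 for Ina, -0.35 to 0.22 for Prph, -0.45 to -0.020 for Nes and -0.20 to 0.014 for Smn1.

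Relative to the neuron markers the range without 1 library was -0.084 to 0.062 for Nefl, -0.072 to 0.075 for Nefm and -0.030 to 0.053 for Ina. It was -0.26 to -0.094 for Nefh, -0.46 to -0.18 for Prph and -0.73 to -0.42 for Nes. With the axon cytoskeleton list as the reference, Nefm and Ina turned to -0.038 and -0.039 and Prph was at -0.38. Without 1 library, the difference in share between SMA and control ran from -0.0195 to 1.78 percentage points for Nefl and from -0.143 to 1.40 for Nefm. It ran from -0.383 to 1.15 for Ina and from -1.99 to -0.96 for Prph. The difference in log2 ratio to Nefl ran from -0.057 to 0.097 for Nefm and from -0.069 to 0.074 for Ina. It ran from -0.24 to -0.030 for Nefh and from -0.45 to -0.24 for Prph. Groups that overlap with all libraries came apart without control replicate 1: Nefh relative to the neuron markers (-0.26), as a share (-0.383 percentage points) and as a ratio to Nefl (-0.24), Nes relative to the neuron markers (-0.73) and as a share (-0.421), and the ratio of Prph to Nefl (-0.45). Without SMA replicate 1 this held for Nes (-0.70 relative, -0.414 as a share) and for the ratio of Prph to Nefl (-0.38). At most 1 filament gene had groups apart in FPKM when a library was left out (0 to 1), Nefm without control replicate 3 and Nes without SMA replicate 1. The shares of all genes with groups apart were not computed for these settings. Without control replicate 2, SMA was wholly below control in 14.8% of genes relative to the neuron markers and in 5.52% scaled to the sum. In FPKM it was wholly above in 14.2% and wholly below in 13.9%. These separations are therefore no result about the filament genes.

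Over all genes, 581 were higher and 409 lower at an unadjusted p of 0.05. The higher ones numbered 882 with no minimum level and 338 with scaling to the same total, and from 214 to 1040 without 1 library; the lower ones numbered from 125 to 862. The higher share, 58.7%, became 46.7% with scaling to the same total, 48.3% with median ratio scaling and 4.37% when centred on the neuron markers (19 higher, 416 lower), which shifted the median of all genes by -0.27. With a fold over 2 the count of 29 became 189 with a pseudocount of 0.1 and from 16 to 144 without 1 library; from 0 to 2 passed the adjusted p. The median of the other intermediate filaments was -0.047 with median ratio scaling and -0.0066 to 0.12 without 1 library. Centred on the neuron markers it was -0.26, with 10 of 12 genes negative, beside -0.22 over all genes. Vessel genes lower at an unadjusted p of 0.05, 7 of 14, numbered from 3 to 9 without 1 library and 4 when centred on the neuron markers. Partner genes higher at that threshold, 2 of 21, numbered from 0 to 3 without 1 library and 0 when so centred. The cause of these differences was not tested.

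With the replicate number as a block, as for paired libraries, 356 genes were higher at an unadjusted p of 0.05 and 48 passed it with a fold over 2; the log2 fold changes kept their values (Nefl 0.26, Prph -0.071). By the labels, same-numbered libraries share only a number. Their deviations from the group means correlated at -0.04, 0.02 and 0.08 across genes, and those of differently numbered libraries at -0.055 to 0.043. With 3 libraries in each group, these values cannot tell whether libraries were paired. The unknown number of reads limits the precision, above all of Nes.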
